A study of Mus musculus with 2 samples.

Results

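Kruppel-like factor genes, 10 in number, were described in mouse adipocyte precursor cells: Klf2, Klf3, Klf4, Klf5, Klf6, Klf7, Klf9, Klf10, Klf13 and Klf15. They were chosen by gene symbol, for known roles for or against the formation of fat cells, and are 10 of the 27998 genes in the count matrix. The precursors came by flow sorting from the subcutaneous fat of wild-type pups, 12 days old. Cross-fostering had placed the pups with dams that gave milk fat of a high n-6/n-3 or a low n-6/n-3 ratio of polyunsaturated fatty acids, and each of these 2 conditions gave 1 sample. Per the labels, 3000 living cells per condition entered droplet capture, in which transcripts are read at their 3′ end and each molecule carries a unique molecular identifier (UMI). The number of pups behind a sample is not given in the labels used here, and the labels call the cells fresh in one place and frozen and thawed in another. The barcode suffixes, here library 1 and library 2, are tied to no diet by the labels, so no diet comparison was made. With 1 library per condition there are no replicates and no p-values, and every interval is a 95% interval for counting error only.

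Kruppel-like factors are transcription factors with a row of zinc fingers at the C-terminal end that bind GC-rich DNA, chiefly CACCC and GC boxes. In cultured fat cell precursors Klf4, together with Egr2 (Krox20), switches on Cebpb, and Klf5, Klf9 and Klf15 act on Pparg, the master regulator of fat cell differentiation. Klf6 represses Dlk1, an inhibitor of differentiation, whereas Klf2 represses Pparg, Klf3 represses Cebpa with the corepressor Ctbp, and Klf7 also holds differentiation back. Klf10 is induced by TGF-beta, and Klf13 is a widely expressed member of the family.

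The promoter bases of the 3 members that were lower in committed than in progenitor cells, and of the member with the most even level, are shown to set their GC and CACCC boxes, the kind of site the family binds, side by side. Sequences are from RefSeq, build GRCm38.p6, and capitals mark a GC box (GGGCGG) or a CACCC box (CACCC) on either strand. Klf2 is shown at chr8:72318812-72319032 (plus strand), Klf3 at chr5:64803271-64803387 (plus strand), Klf4 at chr4:55532476-55532725 (minus strand) and Klf9 at chr19:23140976-23141225 (plus strand), each 5′ to 3′ and ending at or just before the start of the gene.
Klf2: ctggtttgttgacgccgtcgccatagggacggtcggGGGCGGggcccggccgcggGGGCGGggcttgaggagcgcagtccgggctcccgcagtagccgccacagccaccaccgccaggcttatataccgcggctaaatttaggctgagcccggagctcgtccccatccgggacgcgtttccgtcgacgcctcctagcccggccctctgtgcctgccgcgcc
Klf3: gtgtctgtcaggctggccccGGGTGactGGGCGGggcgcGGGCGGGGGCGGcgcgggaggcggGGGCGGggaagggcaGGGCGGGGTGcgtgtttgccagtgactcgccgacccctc
Klf4: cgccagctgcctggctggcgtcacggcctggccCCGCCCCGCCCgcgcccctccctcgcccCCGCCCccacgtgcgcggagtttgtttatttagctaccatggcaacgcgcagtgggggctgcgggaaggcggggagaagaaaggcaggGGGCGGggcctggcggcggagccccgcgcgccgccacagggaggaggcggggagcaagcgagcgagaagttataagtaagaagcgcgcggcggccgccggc
Klf9: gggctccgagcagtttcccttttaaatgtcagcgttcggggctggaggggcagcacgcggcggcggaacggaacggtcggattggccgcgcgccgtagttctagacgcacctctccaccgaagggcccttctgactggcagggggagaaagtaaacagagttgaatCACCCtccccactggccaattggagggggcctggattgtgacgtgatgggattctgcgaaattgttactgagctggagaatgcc

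The Klf2 stretch holds 2 GC boxes and 1 match to the MEF2 site, the Klf3 stretch 5 GC boxes with 2 CACCC boxes (1 of them overlapping a GC box), the Klf4 stretch 4 GC boxes and the Klf9 stretch 1 CACCC box and no GC box. Promoter windows were found for 8 of the 10 members, and Klf5 and Klf10 have no entry. Over the first 250 bases of each window, a GC box was present in 7 of these 8 windows, all but that of Klf9, against 32.7% of all 32851 windows of the same length. A CACCC box was present in 6 of 8, against 52% of all windows. These 250 bases run past the annotated gene start for Klf2, Klf3 and Klf6 and lie inside the annotated gene for Klf7. Window counts can thus exceed those of the printed stretches, and the CACCC box of Klf2 is not within its printed stretch. The GC content of the members' windows ran from 59.2% (Klf7) to 78.4% (Klf3), beside a median of 52.4% over all windows. CCAAT boxes were found in Klf6 (4), Klf9 (3), Klf13 (2) and Klf15 (1), against 33.8% of all windows with 1 or more. A TATA box (TATAAA), an AP-1 site (TGACTCA or TGAGTCA) and the CArG box were in no member's window, and 12.4%, 4.46% and 1.47% of all windows hold them. These are matches of letters in the reference sequence, not sites shown to be bound.

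Of 6905 barcodes, 6877 were kept, 3302 in library 1 with a median of 12962 UMIs and 3575 in library 2 with a median of 12111, and 17 barcode sequences occurred in both libraries. Each library thus held more kept cells than the 3000 per condition that the labels state, and the labels used here do not say why. The cells were clustered with all Kruppel-like and Sp factor genes left out, so that no cluster was built from the members. The sorted-precursor label was checked against marker genes: 6764 cells fell in 7 precursor clusters, and 113 in an endothelial-like and a mixed red cell and macrophage cluster. Dpp4-type progenitor-like cells (920 and 1000 in the libraries) raised 10 of 12 markers such as Pi16 and Wnt2, committed preadipocyte-like cells (675 and 803) 10 of 12 such as Lpl and Col15a1, F3-type stromal-like cells (178 and 192) 7 of 8, and cycling-like cells (89 and 134) 12 of 12. Clusters 2, 3 and 4 were left unnamed, and cluster 4 (353 and 300 cells), with Cilp, C1qtnf3, Fos and Jun among its leading genes, raised 2 of 4 Schwann cell markers. Summed marker levels of other cell types in the precursor clusters were 24.5 to 40.3 UMIs per 1000000 UMIs of the sum (CPM) for endothelial genes and 13.3 to 29.8 CPM for macrophage genes. Erythroid genes differed by library, at 852 to 6616 CPM in library 1 and 18.2 to 21.8 CPM in library 2. Schwann markers were at 17.3 to 57.7 CPM except in cluster 4 of library 2, at 635 CPM.

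Levels are given as CPM of the summed UMIs of a cluster. Transcripts are read at their 3′ ends and counted by UMI, without division by transcript length. Differences between classes are read within a gene, and counts across genes give only a rough order of abundance. By UMIs in all kept cells, the members fell into an abundant set (Klf4 with 80801, Klf2 with 76583 and Klf6 with 40338), a middle set (Klf9 with 16988, Klf7 with 7997, Klf13 with 7398 and Klf3 with 6940) and a sparse set (Klf10 with 1648, Klf5 with 544 and Klf15 with 47). In Dpp4-type cells Klf2 ranked 145 and Klf4 150 by UMI count among 16612 genes with a UMI. Of the 16 other Kruppel-like and Sp factor genes, none reached 50 CPM in any precursor cluster.

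Klf2, Klf3 and Klf4 were lower in committed preadipocyte-like than in Dpp4-type progenitor-like cells, in both libraries, and the other 5 measured members were not past 1.5-fold in both. A member was called when it had at least 10 CPM in either sum and was 1.5-fold or more apart in the same direction in each library. By this rule 3 of 8 measured members were lower, where 12.6% of 7002 genes were, and 0 were higher, where 8.03% of genes were. The median log2 ratio was -0.43 over the 8 members and -0.17 over all genes. Klf5 and Klf15 were under 10 CPM in both classes and were not counted. The 3 lower members are a repressor of Pparg, a repressor of Cebpa and an activator of Cebpb. With TMM scaling the all-gene median was -0.02 and the background 10.7% higher and 8.23% lower, so that 56.4% rather than 38.8% of called genes were higher, and the same 3 members were called.

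**Figure D1:**
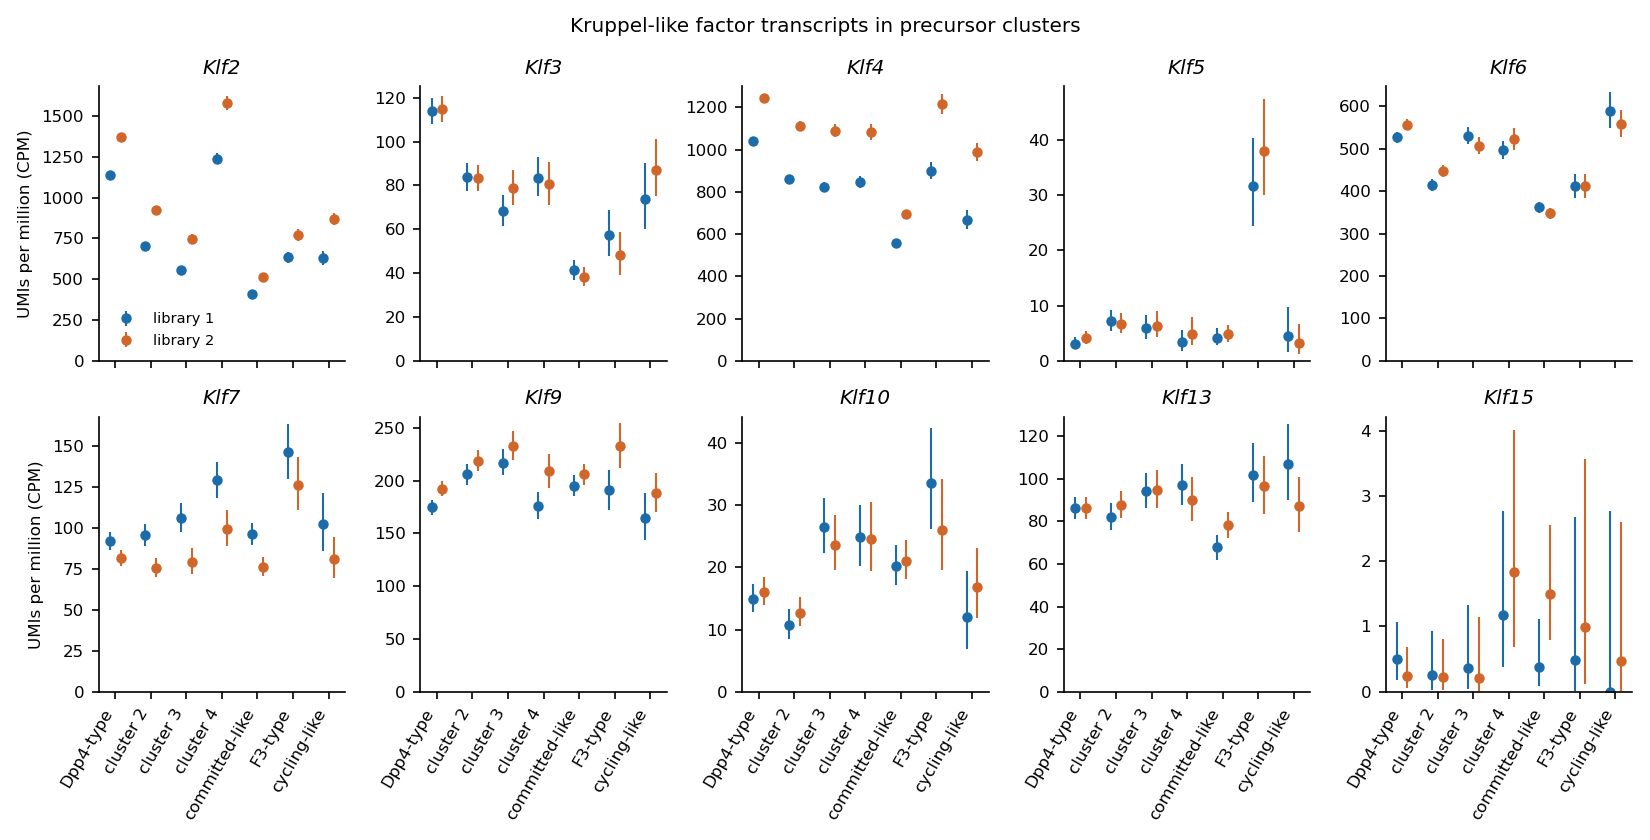
Level of each Kruppel-like factor (CPM, linear axis from 0) in the 7 precursor clusters, library 1 in blue and library 2 in orange, with bars for 95% Poisson intervals of the counts. Klf2, Klf3 and Klf4 have their lowest points in committed-like cells, Klf5 has its highest in F3-type cells (31.7 and 38 CPM against 7.14 or less elsewhere), and Klf9 is nearly level.

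Klf2 (ENSMUSG00000055148, chromosome 8, 72319033 to 72321656, plus strand) represses Pparg. Its level was 1140 CPM in library 1 and 1373 CPM in library 2 in Dpp4-type cells, and 411 and 514 CPM in committed-like cells. Both committed values were below both progenitor values. The log2 ratio was -1.44 (-1.47 to -1.40), 2.71-fold lower, with -1.47 in library 1 and -1.42 in library 2. Across all clusters the order was cluster 4 (1239 and 1578 CPM), Dpp4-type, cluster 2 (706 and 921), cycling-like (630 and 868), F3-type (633 and 770), cluster 3 (554 and 749) and committed-like. The ranges of cluster 4 and Dpp4-type overlapped, as did those of each pair of neighbours from cluster 2 to cluster 3, and the committed-like range lay below all others. Cluster 4 has Fos and Jun among its leading genes, and its Schwann markers were at 41.2 CPM in library 1 and 635 CPM in library 2, and their part in its Klf2 level was not tested. At a finer clustering (Leiden resolution 1) the committed-like ratio of Klf2 was -0.75 in log2, still called.

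Klf3 (ENSMUSG00000029178, chromosome 5, 64803388 to 64832901, plus strand), which represses Cebpa together with Ctbp, was at 114 and 115 CPM in Dpp4-type cells and at 41.3 and 38.2 CPM in committed-like cells. The groups did not overlap, and the libraries lay close together within each class. The log2 ratio was -1.53 (-1.65 to -1.40), 2.88-fold lower. F3-type cells were next to lowest at 57.6 and 48.3 CPM, and cluster 2, cluster 4 and cycling-like cells lay together at 74.0 to 87.2 CPM. The log2 ratios of Klf3 and Klf2 were close, -1.46 and -1.47 in library 1 and -1.59 and -1.42 in library 2. The share of cells with a Klf3 UMI was 71.1% (69.1 to 73.2, exact binomial) in Dpp4-type and 31.6% (29.2 to 34) in committed-like cells, and 54.6% and 22.8% after every cell had been thinned to 7464 UMIs. As a rough background of free RNA, 21 cells with at least 20% haemoglobin UMIs were used, all in library 1. They had a share of 19% (5.45 to 41.9) and a level of 42.8 CPM (22.1 to 74.8). The interval of that level takes in the committed-like level and not the Dpp4-type level. Whether the UMIs of these haemoglobin-rich cells are free RNA or their own transcripts was not tested, here or for the members below. The median depth of the haemoglobin-rich cells was 12153 UMIs, beside 13437 in Dpp4-type and 11230 in committed-like cells.

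Klf4 (ENSMUSG00000003032, chromosome 4, 55527143 to 55532466, minus strand), an activator of Cebpb, was at 1039 and 1245 CPM in Dpp4-type cells and at 556 and 695 CPM in committed-like cells. The committed values were again below both progenitor values. The log2 ratio was -0.86 (-0.90 to -0.83), 1.82-fold lower. Apart from cycling-like cells, every other cluster was closer to the progenitor level, with F3-type cells at 901 and 1217 CPM. The ranges of all neighbours in the order overlapped. Within each library, committed-like cells were lowest, next to cycling-like cells at 667 and 990 CPM. At Leiden resolution 1 the committed-like ratio of Klf4 was -0.58 in log2 and not called, nor did Klf4 pass a 2-fold threshold.

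Klf6 (ENSMUSG00000000078, chromosome 13, 5861482 to 5870394, plus strand), a repressor of Dlk1, had a lower level in committed-like cells, 1.53-fold over both libraries, without reaching the fold in library 1. It was at 527 and 557 CPM in Dpp4-type and at 362 and 348 CPM in committed-like cells, log2 ratios of -0.54 and -0.68. The ranges of the classes did not overlap. Library 2 alone, and counts thinned to 7464 UMIs a cell, called it lower. Cycling-like cells had its highest level (590 and 558 CPM).

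Klf7 (ENSMUSG00000025959, chromosome 1, 64029447 to 64122282, minus strand) had log2 -0.01, Klf9 (ENSMUSG00000033863, chromosome 19, 23141226 to 23168134, plus strand) 0.13 and Klf13 (ENSMUSG00000052040, chromosome 7, 63886351 to 63938915, minus strand) -0.24 between committed-like and Dpp4-type cells. None of the 3 was past the fold. Klf9, a partner of Cebpa on Pparg, was the most even member, between 179 and 225 CPM over the 7 clusters, 1.25-fold from lowest to highest. Klf13 ran from 73.2 CPM in committed-like to 99.5 CPM in F3-type cells. Klf10 (ENSMUSG00000037465, chromosome 15, 38291463 to 38300706, minus strand) was at 20.2 and 21.1 CPM in committed-like and 15 and 16.1 CPM in Dpp4-type cells, log2 0.41, also short of the fold. It was called higher between the ends of a score of progenitor and committed markers (log2 0.65) and among cells with the fewest immediate early counts (0.77). Klf10 was also called higher, at 0.60, when the 8 predicted doublets were kept. That setting clustered the cells anew, and its Dpp4-type class had 2927 cells in place of 1920.

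**Figure D2:**
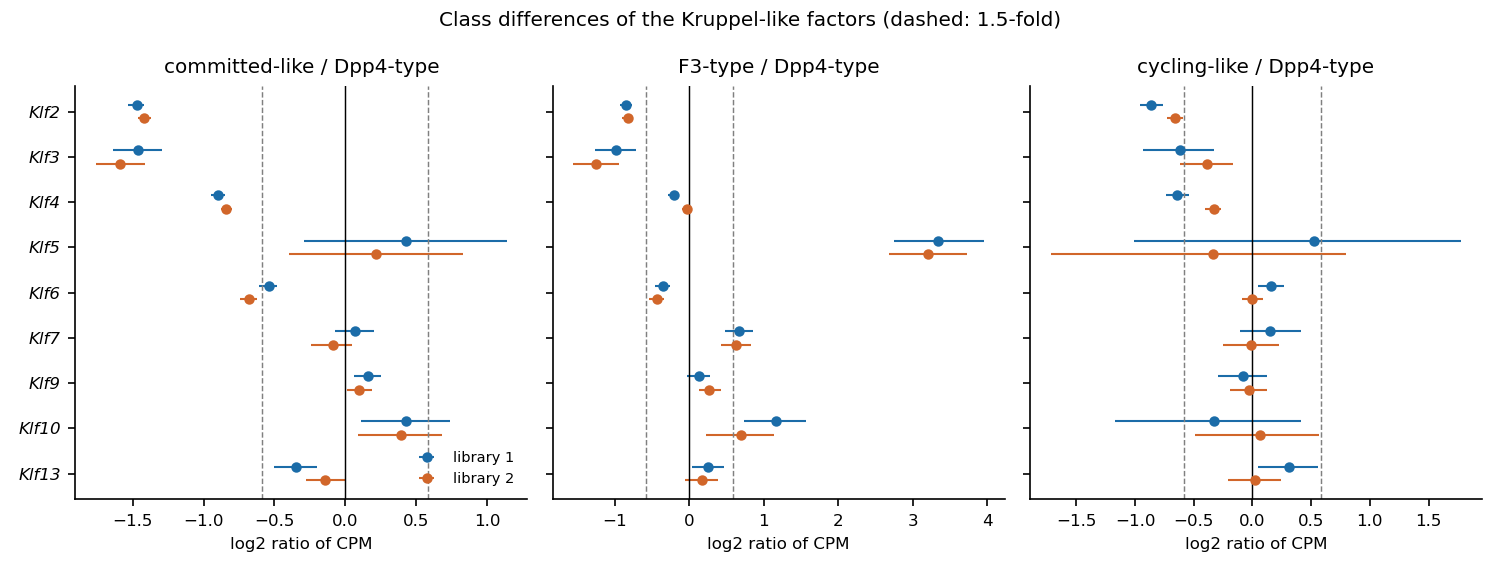
Log2 ratio of CPM for 9 Kruppel-like factors in 3 class comparisons, library 1 in blue and library 2 in orange, bars for 95% intervals of counting error, dashed lines at 1.5-fold. In the first panel Klf2, Klf3 and Klf4 lie left of the line in both libraries, and in the second Klf5 lies at 3.34 and 3.20.

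A list of partners and targets of these factors, with other genes of fat cell formation, had more genes higher than lower in committed-like cells. Of the 16 genes on this list, called the circuit list below, 12 were measured. In committed-like cells 7 were higher, 1 was lower and 4 were not past the fold, with a median log2 ratio of 0.92. Of all 7002 genes measured, 8.03% were higher and 12.6% lower. Cebpb, the target of Klf4, was at 477 and 485 CPM against 170 and 167 CPM, log2 1.51 (1.46 to 1.57). Dlk1, the target of Klf6, was at 1551 and 1304 CPM against 206 and 222 CPM, log2 2.73. Between these 2 classes Cebpb was thus higher where Klf4 was lower, and Dlk1 higher where the Klf6 value was lower. Cebpa (21.7 and 20.4 against 5.58 and 6 CPM), Pparg (21.1 and 17.9 against 4.68 and 3.9 CPM) and Egr2, the partner of Klf4 (13.3 and 11.6 against 5.34 and 5.53 CPM), were higher at low levels. Fabp4 was higher at log2 2.22. Pparg and Fabp4 are on the list of committed markers and were not among the 10 raised ones that named the class. Ctbp2 was higher at log2 0.65, and its relative Ctbp1 was at -0.37, not past the fold. Zfp521, which restrains the adipogenic programme, was the lower gene at -0.74. Srebf1, Zfp423 and Wwtr1 were not past the fold. The 2 pairs stood otherwise in the other classes compared with Dpp4-type cells. In cycling-like cells Dlk1 was at log2 1.14 with Klf6 at 0.07, and Cebpb at 0.49 with Klf4 at -0.40. In F3-type cells Dlk1 was at 1.16 with Klf6 at -0.40, and Cebpb at 1.37 with Klf4 at -0.12. Whether the genes of a pair are linked in these cells was not tested.

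Glucocorticoid and TGF-beta response genes were counted because both signals act on members of the family. Of 11 glucocorticoid response genes 9 were measured, with 3 higher in committed-like cells (Sgk1, Mt1 and Mt2), 2 lower (Per1 and Cdkn1c) and a median of 0.05. Of 11 TGF-beta response genes 9 were measured, with 2 higher (Tgfbi at log2 1.04 among them), 1 lower (the receptor gene Tgfbr2 at -1.36) and a median of -0.03. Neither list moved one way. Of 18 immediate early and heat shock genes 17 were measured, with 5 higher (Jund, Egr2, Btg2, Zfp36 and Dnajb1), 2 lower (Nr4a1 and Hspa1a) and a median of 0.04. Beside these lists, 8.03% of all genes measured were higher and 12.6% lower, with a median of -0.17.

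When cells were ordered by a score of progenitor and committed marker genes, Klf2, Klf3 and Klf4 were lower toward the committed end. The score split all precursor cells into 5 bins, from the progenitor end to the committed end. Over both libraries the first bin was 71.2% Dpp4-type and the last 74% committed-like cells. The order by score is thus not independent of the clusters. Klf2 went from 1132 through 874, 832 and 613 to 552 CPM in library 1, and from 1249 through 1156, 1039 and 769 to 640 CPM in library 2. Klf3 went from 112 through 103, 79.2 and 63.7 to 40.6 CPM in library 1, and from 107 through 105, 84.6 and 57.1 to 39.6 CPM in library 2. Both were lower in each next bin in both libraries. Klf4 kept near its starting level over the first 3 bins (996, 983 and 902 CPM in library 1, 1174, 1207 and 1177 CPM in library 2) and was at 747 and 554, and 950 and 718 CPM, in the last 2. Cebpb went the other way, from 176 to 430 CPM in library 1 and from 172 to 465 CPM in library 2, higher in each next bin. Klf10 was at 12.2 and 13.4 CPM in the first bin and highest in the fourth at 27.2 and 23.5 CPM. F3-type cells, the class with the highest Klf10, made up 18.4% and 19.8% of the fourth bin and at most 6.02% of any other, and their part in the Klf10 course was not tested. Median depth also declined along the score, from 14126 to 11524 UMIs in library 1 and from 13412 to 10659 in library 2, and its part in these courses was not tested. CPM divides by the depth of each sum.

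**Figure D3:**
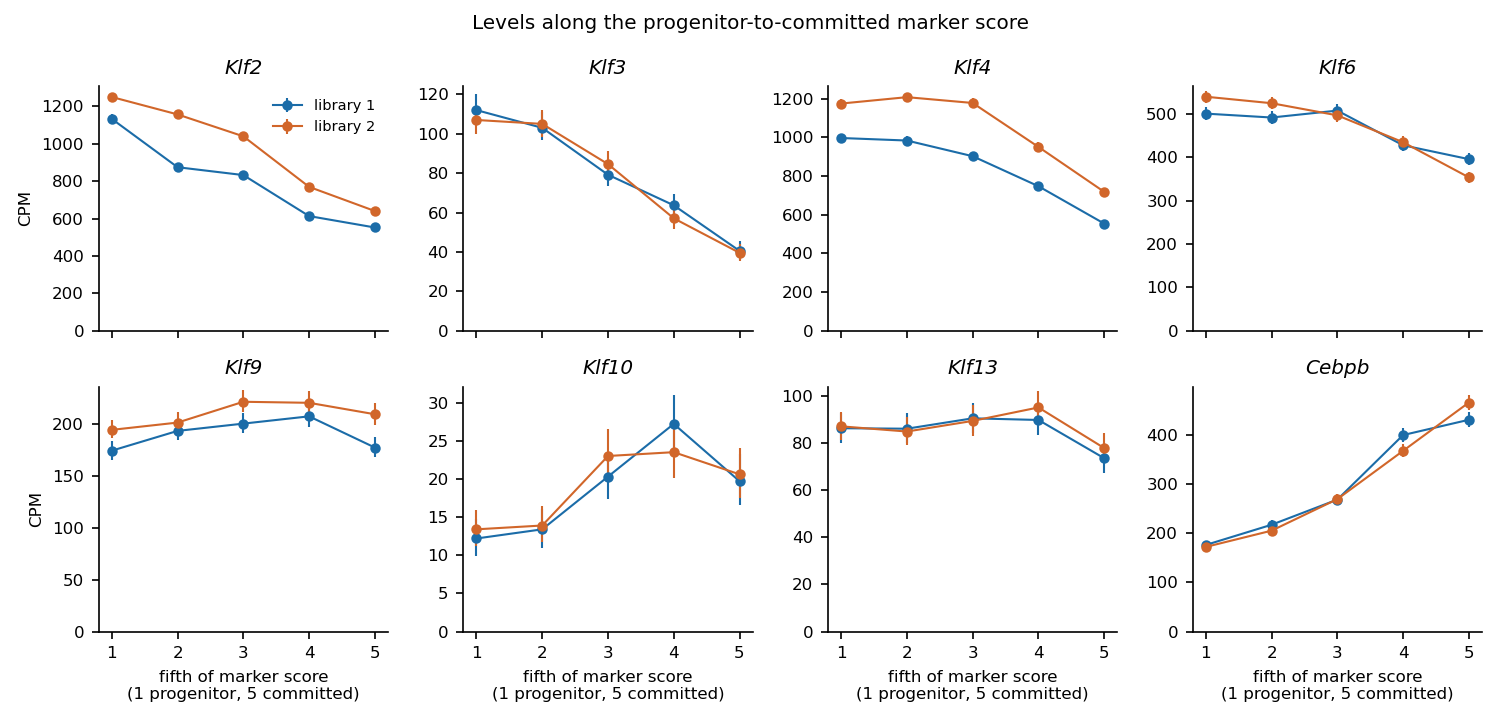
Levels (CPM, linear axis from 0, 95% Poisson intervals) of 7 Kruppel-like factors and Cebpb in 5 bins of a marker score from the progenitor end (1) to the committed end (5), library 1 in blue and library 2 in orange. Klf2 and Klf3 are lower in each next bin, Klf4 is lowest in the last 2 bins, and Cebpb is higher in each next bin.

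The distribution over single cells showed a shift of most cells for the abundant members. At a common depth of 7464 UMIs, the median Dpp4-type cell had 6 Klf2 UMIs in library 1 (10th to 90th percentile 2 to 18) and 8 in library 2 (3 to 21). The median committed-like cell had 2 (0 to 6) and 3 (1 to 8). Cells with no Klf2 UMI made up 2.21% and 1.19% of Dpp4-type and 12.3% and 6.35% of committed-like cells. For Klf4 the medians were 7 and 8 UMIs against 3 and 4. Most committed-like cells thus still held both transcripts, at a lower count. In the haemoglobin-rich cells 76.2% (52.8 to 91.8) had a UMI of Klf2, at 275 CPM, and of Klf4, at 246 CPM, so a share of cells carries little for these abundant genes, and the committed-like levels lie above that background.

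Klf5 was concentrated in F3-type cells, the small class marked by F3, Gdf10 and Clec11a. Relative to Dpp4-type cells Klf5, Klf7 and Klf10 were higher and Klf2 and Klf3 lower in F3-type cells. That is 3 of 9 measured members higher, where 8.76% of 7131 genes were, and 2 lower, where 8.12% were. The members' median log2 ratio was 0.20 and that of all genes -0.10. At a 2-fold threshold Klf5 was the 1 member called.

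Klf5 (ENSMUSG00000005148, chromosome 14, 99298691 to 99315036, plus strand) activates Pparg downstream of Cebpb. It was at 31.7 CPM (24.5 to 40.3) and 38 CPM (30 to 47.5) in F3-type cells, and at 3.12 and 4.13 CPM in Dpp4-type cells. The log2 ratio was 3.26 (2.87 to 3.65), 9.56-fold higher, with 3.34 and 3.20 in the libraries. No other precursor cluster was above 6.91 CPM over both libraries, and committed-like cells were at 4.2 and 4.82 CPM. F3-type cells, 5.38% of kept cells, held 143 of the 544 Klf5 UMIs (26.3%). The share of F3-type cells with a Klf5 UMI was 28.6% (24.1 to 33.5), or 22.6% after thinning. In Dpp4-type cells it was 4.27% (3.41 to 5.27) and in committed-like cells 4.74% (3.71 to 5.95). The haemoglobin-rich background was 9.52%, on 2 of 21 cells, with an interval of 1.17 to 30.4 that takes in all 3 shares. With so few cells this background cannot tell whether any of the 3 shares is above free RNA. The F3-type share was above those of Dpp4-type and committed-like cells beyond counting error, at a lower median depth (10864 UMIs).

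Klf7 was at 146 and 126 CPM in F3-type cells and at 92 and 81.5 CPM in Dpp4-type cells, log2 0.65 (0.67 and 0.63 in the libraries). The F3-type range overlapped that of cluster 4 (129 and 99.2 CPM) but not that of the progenitors. Klf10 was at 33.6 and 26.1 CPM against 15 and 16.1 CPM, log2 0.94. Its share of cells with a UMI, 23% (18.8 to 27.6) in F3-type and 17.6% in Dpp4-type cells, was within the interval of the background share of 14.3% (3.05 to 36.3), and the background level was 17.9 CPM (5.8 to 41.7). The Klf7 call was lost when 3000 variable genes were used for clustering. Outside the precursors, 49 endothelial-like cells had Klf10 at 68 and 87.3 CPM and Klf7 at 268 and 220 CPM. Endothelial markers summed to 33.6 and 26.1 CPM in F3-type and 28.6 and 30.6 CPM in Dpp4-type cells, 2 ranges that overlap.

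In the other direction, Klf2 was at 633 and 770 CPM in F3-type cells, log2 -0.85 (-0.85 and -0.83 in the libraries), and Klf3 at log2 -1.11 (-0.98 and -1.25). Klf4, at log2 -0.12, and Klf6, at -0.40, were not past the fold. F3-type and committed-like cells were both compared with the same Dpp4-type cells and not with each other. Of the circuit list, 4 of 11 measured genes were higher in F3-type cells, Egr2 (34.1 and 34.5 CPM, log2 2.66), Cebpa (1.31), Cebpb (427 and 443 CPM, log2 1.37) and Dlk1 (1.16). Zfp423 was lower at -1.09, and the list's median was 0.55. Pparg, at 5.28 and 5.92 CPM, was under the minimum in both classes. Of the 17 immediate early and heat shock genes measured, 7 were higher (Fosb, Egr2, Btg2, Zfp36, Nr4a1, Hspa1b and Dnajb1) and 0 lower, with a median of 0.59. That list's part in the F3-type values was not tested. Beside the circuit and immediate early lists, 8.76% of all genes measured were higher in F3-type cells and 8.12% lower.

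Cycling-like cells differed from Dpp4-type cells in 1 of 8 measured members. Klf2 was lower at 630 and 868 CPM against 1140 and 1373 CPM, log2 -0.70 (-0.86 and -0.66). Lower calls covered 2.37% of 7464 genes, and higher calls, of which the members had 0, covered 12.3% (4.97% and 9.29% with TMM scaling, under which 65.2% rather than 83.8% of called genes were higher). Klf4 (log2 -0.64 and -0.33) and Klf3 (-0.48) were not past the fold in both libraries, and Klf6 stood at 0.07. The Klf2 call was lost when clusters were made at a finer resolution, or made anew with listed genes or predicted doublets kept. It was also lost at a 2-fold threshold and when cluster 2 was joined to the progenitors.

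Klf15 (ENSMUSG00000030087, chromosome 6, 90462576 to 90475238, plus strand), which acts on Pparg and on the glucose transporter gene Slc2a4 late in differentiation, was barely seen. It had 47 UMIs in all kept cells and at most 1.47 CPM, in cluster 4. Over both libraries 16 UMIs in committed-like and 9 in Dpp4-type cells gave log2 1.42 (0.16 to 2.78), but the libraries went in opposite directions, -0.37 in library 1, with an interval on both sides of 0, and 2.67 (0.81 to 5.13) in library 2, at under 2 CPM. These levels are too low for a call. Markers of mature adipocytes summed to at most 28 CPM in any precursor cluster.

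Klf2 was higher in cells with more immediate early transcripts such as Fos, in both classes examined, and Klf4 was so called in committed-like cells. Cells of each class and library were split into 3 equal bins by the summed counts of 18 immediate early and heat shock genes, none of them a Kruppel-like factor. In Dpp4-type cells Klf2 went from 865 through 1068 to 1493 CPM in library 1 and from 1002 through 1231 to 1901 CPM in library 2, log2 0.79 and 0.92 between the highest and the lowest bin. Fos, a gene of the score, went from 491 to 2839 CPM and from 400 to 3100 CPM. Klf2 was the 1 of 8 measured members called higher, where 0.433% of 6921 genes were, and 0 were called lower, where 0.39% were. Klf4 (839 to 1249 CPM and 962 to 1487 CPM) and Klf6 (427 to 620 CPM and 420 to 703 CPM) were just short of 1.5-fold in library 1 and past it in library 2. Klf3, Klf9 and Klf13 showed no such course, with log2 ratios of -0.07 and 0.24, -0.01 and 0.02, and 0.04 and -0.01. Median depth differed little between the lowest and highest bins, 14163 and 13715 UMIs in library 1 and 13343 and 13190 in library 2.

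In committed-like cells Klf2 went from 272 through 360 to 607 CPM in library 1 and from 409 through 421 to 721 CPM in library 2, log2 1.16 and 0.82. Klf4 went from 444 through 549 to 680 CPM and from 495 through 654 to 945 CPM, log2 0.61 and 0.93. Both were called, 2 of 8 measured members, where 0.932% of 6546 genes were higher, and 0 members were lower, where 0.565% of genes were. Klf6 had log2 0.45 and 0.24 and was not called.

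**Figure D4:**
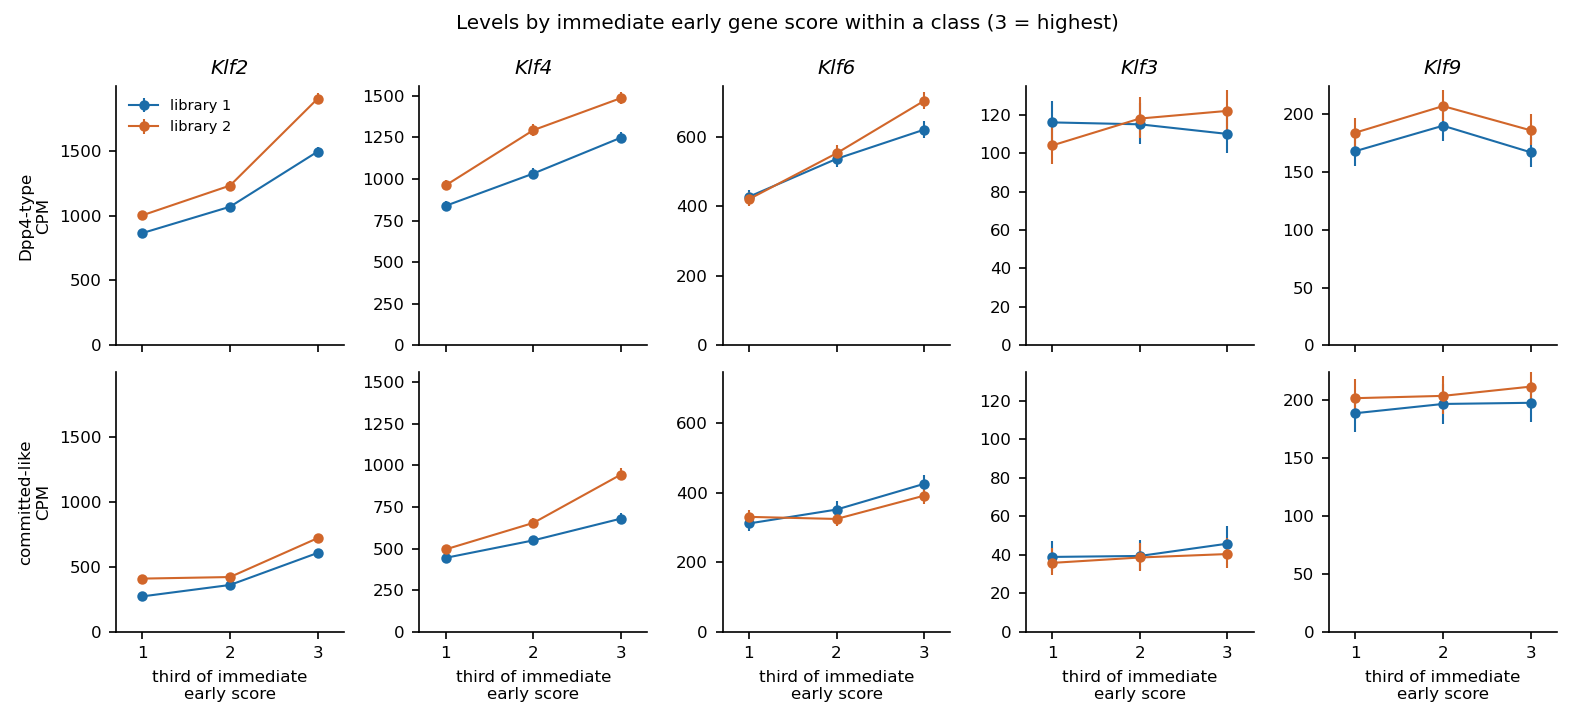
Levels (CPM, linear axis from 0, 95% Poisson intervals) of 5 Kruppel-like factors in 3 bins of the immediate early gene score (3 is highest) within Dpp4-type cells (upper panels) and committed-like cells (lower panels), library 1 in blue and library 2 in orange. Klf2, Klf4 and, in Dpp4-type cells, Klf6 are higher in each next bin, while Klf3 and Klf9 are nearly level.

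The class difference was present within bins of the summed immediate early score. The bins match the sum and not its single genes. Between committed-like and Dpp4-type cells Fos was at log2 -0.44 and Nr4a1 at -1.09, but Jund at 0.71 and Zfp36 at 0.87. Whether the classes were alike in single immediate early genes within a bin was not tested. With 3 bins set over all precursor cells, a split chosen after the data were seen, committed-like against Dpp4-type cells of the same bin gave log2 ratios of -1.38 to -1.94 for Klf2, -1.33 to -1.74 for Klf3 and -0.81 to -1.22 for Klf4 over the 3 bins and both libraries. Klf6 gave -0.60, -0.65 and -0.69 in library 1, stood at 370 against 737 CPM in the highest bin of library 2, and was past the fold in both libraries in the middle and the highest bin. Klf10 gave 0.82 and 0.73 in the lowest bin, 0.50 and 0.26 in the middle and -0.10 and 0.21 in the highest. The order of the classes was thus the same in every bin for Klf2, Klf3, Klf4 and Klf6.

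Across thinned Dpp4-type cells (813 and 926), Klf2 and Klf4 had a Pearson r of 0.31 and 0.34, Klf2 and Klf6 0.23 and 0.28, and Klf2 and Jun 0.29 and 0.34. In committed-like cells (618 and 740), Klf2 and Klf4 had 0.21 and 0.21, and Klf2 and Klf6 0.08 and 0.04. These describe cells of 1 library at equal depth and carry no test. Over the 14 sums of 7 clusters and 2 libraries, the highest values between members were 0.79 for Klf3 and Klf6, 0.76 for Klf2 and Klf3 and 0.72 for Klf2 and Klf4. Klf5 and Klf7 had 0.61. The 14 sums share their library in 2 sets of 7.

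The genes most like each member over the same 14 sums were ranked by Pearson r of log2(CPM + 5) among 2917 genes. Klf3 was most like Tmem100 (0.963), Wls (0.96) and Lims2 (0.959), of which Tmem100 also led the Dpp4-type cluster. Klf5 was most like Ifitm1 (0.968), Arhgdib (0.953) and Vit (0.943), all leading genes of the F3-type cluster, and Klf10 was most like F3 itself (0.919), then Snapc5 (0.888) and Tshz2 (0.88). Klf2 was most like Cops7a (0.927), Sh3gl1 (0.926) and Sec62 (0.905), and Klf4 most like Dync1i2 (0.91), Gxylt2 (0.867) and Scd2 (0.83). For Klf6 they were Coa3 (0.954), Pdlim1 (0.933) and Prkcdbp (0.925), and for Klf7 Ccdc28b (0.881), Spon2 (0.879) and Adamts10 (0.879). Klf9 had Trip12 (0.868), Ube2f (0.805) and Zfp36l1 (0.789), and Klf13 had Cyb5r3 (0.905), Pdha1 (0.821) and Cttn (0.821).

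Between the libraries the members differed by little. In Dpp4-type cells 0 of 8 measured members were 1.5-fold apart, where 0.333% of 6906 genes were higher in library 2 and 0.42% lower. On TMM-scaled CPM, Klf2 was at 1140 CPM in library 1 and 1366 CPM in library 2, log2 0.26 (0.23 to 0.29). Klf4 was at 1039 and 1239 CPM, log2 0.25 (0.22 to 0.29), and Klf7 at 92 and 81.1 CPM, log2 -0.18 (-0.30 to -0.06). Klf3 (0.00), Klf13 (-0.01), Klf6 (0.07), Klf10 (0.10) and Klf9 (0.13) lay closer to 0.

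These small differences had the same sign in every precursor cluster for 4 members. Klf2 was higher in library 2 by log2 0.26 to 0.48 in the 7 clusters and Klf4 by 0.25 to 0.59, whereas Klf7 was lower, at -0.18 to -0.43. By a rule chosen after the data were seen, the same direction in all 7 clusters and at least 1.2-fold over all precursor cells, Klf2 (807 and 988 CPM, log2 0.29) and Klf4 (844 and 1054 CPM, log2 0.32) were called higher. The same rule called 1.3% of 6765 genes higher. Klf7 (102 and 81.9 CPM, log2 -0.32) was called lower, as were 1.05% of genes. Klf9 was higher in all 7 clusters and did not reach 1.2-fold. Immediate early genes did not move one way: in Dpp4-type cells Fosb (log2 0.34) and Jund (0.29) were higher in library 2 by about as much as Klf2 and Klf4, Egr1 (-0.19) and Ier3 (-0.18) lower, and Jun stood at 0.02. Their part in the values of Klf2 and Klf4 was not tested. The haemoglobin genes were among those lower in library 2 in every precursor cluster, and the myelin gene Mbp among those higher, and their part in these values was not tested. With 1 library per diet and no label tying the suffixes to diets, diet, pups, capture and sequencing cannot be told apart.

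**Figure D5:**
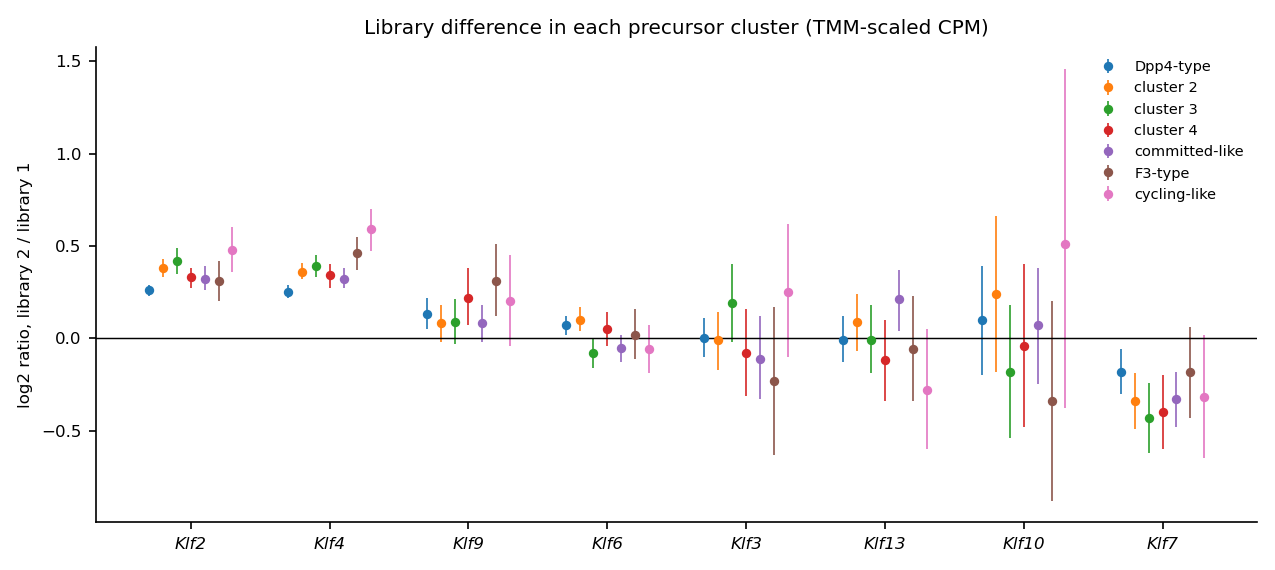
Log2 ratio of library 2 to library 1 (TMM-scaled CPM) for 8 Kruppel-like factors in each of the 7 precursor clusters, with bars for 95% intervals of counting error. Klf2, Klf4 and Klf9 lie above 0 and Klf7 below 0 in all 7 clusters, and the other members fall on both sides.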

How the data were processed

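The authors deposited raw UMI counts, whole numbers for each gene in each barcode. Cell Ranger, Seurat 3.0.1 and the mm10 build are named per the submitters' processing notes, without their roles. The chemistry, per the labels, was 10x Genomics 3′ version 2. The 2 samples share 1 matrix parted by barcode suffix (3321 and 3584 barcodes, 42092816 and 43491307 UMIs), and 0 columns of per-sample values were left unused.

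Barcodes were kept with at least 500 genes and at most 10% mitochondrial counts. Scrublet called 8 of 6905 barcodes (0.116%), too few for a working caller, so doublets remain. With scanpy 1.11.5, counts were scaled to 10000 per cell, and 2000 variable genes, 30 components, 15 neighbours and Leiden resolution 0.5 gave the clusters. A marker counted as raised at 20 CPM and 2-fold over all other cells, and a name needed 3 raised markers making up 33.3% of a list. These naming thresholds were set with the data known. Counts were summed per cluster and library. Intervals are exact: Poisson for CPM, conditional for ratios and Clopper-Pearson for shares. Classes were compared on total counts, libraries on TMM factors, which equalled those of edgeR 4.0.16 (1.0046 for Dpp4-type cells). On simulated data with counting error only (6779 genes, committed-like over Dpp4-type), the rule called 50 of 50 genes at log2 1.00, 50 of 50 at -1.00 and 0 of 6579 unchanged genes.

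The members and lists were chosen with earlier results of these data known. All members are named. Other family genes and list genes could be named at 50 CPM or more, not all of these are printed, and list genes below it (Egr2, Cebpa, Pparg, Ctbp2, Srebf1, Zfp423, Zfp521, Hspa1b and Per1) were named after their values were seen. The 3 genes most like each member needed 50 CPM in 1 sum and were no ribosomal, mitochondrial, Gm or Rik genes, and those of Klf15 are not given because it was under 10 CPM. Cebpd and Trbc2 were not found by symbol. Some results are not given here. Positions are from GENCODE M21 for GRCm38, by gene identifier. Alternatives covered cell filters, doublets, clustering, scaling, thresholds, thinning, each library alone and the immediate early bins.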

Additional observations from a re-analysis of the deposited data

How the results depend on the processing

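Of 516 member log2 ratios under the alternatives, 400 stayed within the counting interval and 116 moved out of it. The 400 include those at the 50 CPM minimum and the 2-fold threshold, which change calls only and leave each ratio as it was. No called ratio changed sign. Ratios not called did, such as Klf4 in F3-type cells (-0.12 to 0.03) and Klf5 in committed-like cells (0.31 to -0.42), both at Leiden resolution 1. Between committed-like and Dpp4-type cells 2 to 4 members were called, with Klf6 lower or Klf10 higher as the fourth. The Dpp4-type class of 1920 cells had 1132 at Leiden resolution 1, 2911 with listed genes kept and 2927 with predicted doublets kept. Only 8 doublets had been predicted, and each of these settings clustered the cells anew. At Leiden resolution 1 Klf4 (log2 -0.58) was lost and Klf2 was at -0.75. TMM scaling moved the all-gene median from -0.17 to -0.02 and the share of higher among called genes from 38.8% to 56.4%, with the same 3 members called. In the cycling-like comparison TMM moved that share from 83.8% to 65.2%. The F3-type comparison called 3 members at a 50 CPM minimum and 1 (Klf5) at 2-fold, in place of 5, and Klf7 was lost with 3000 variable genes. The cycling-like comparison called 0 at 2-fold, at Leiden resolution 1, with listed genes kept among the variable genes, with predicted doublets kept and with cluster 2 joined to Dpp4-type cells, and 3 (Klf2, Klf3 and Klf4) in library 1 alone, in place of 1. Between libraries, the same direction in every cluster with a lower fold, 1.2 over all precursor cells in place of 1.5 in Dpp4-type cells, called 3 members in place of 0. Immediate early bins set over both libraries together called 2 members in Dpp4-type cells (Klf2 and Klf4) in place of 1. The cause of these moves was not tested. No paired analysis was possible because each condition has 1 sample and no comparison rests on a test. Depth limits Klf5, Klf10 and Klf15 outside the classes named.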
